A study of Mus musculus with 2 samples.

Results

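The transcripts of 10 apolipoprotein genes (Apoa1, Apoa2, Apoa4, Apoa5, Apob, Apoc1, Apoc2, Apoc3, Apoe and Apom) were compared in mouse liver between 1 pool of animals given an adenovirus that overexpresses the microRNA miR-378 (Ad-378) and 1 pool given a control adenovirus (Ad-Ctrl). The members were chosen by name, as the gene probes of the array whose RefSeq identifier maps to these symbols. Of the 10 genes, 9 had a matching probe, and all 9 were well above background in both pools. They were read by 11 probes in 29 spots, of 20652 named genes in all, 14288 of which had a level on both arrays. No probe identifier matched Apoc2 in the RefSeq table used, which does not hold every older identifier, so Apoc2 was not analysed here whether or not the array reads it.

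Both groups were male mice, injected into the tail vein at 8 weeks of age with 1e9 plaque forming units of virus, and RNA from a pool of 5 livers per group was hybridised to 1 single-colour Agilent array. Livers were collected 2 weeks after injection per the protocols. The sample description of Ad-378 instead gives 3 weeks, so virus and time cannot be told apart if that entry is right. The study concerns the part of miR-378, a microRNA responsive to thyroid hormone, in hepatic bile acid synthesis and cholesterol balance. With 1 pool per group there was no spread between animals or pools to test against, so no p-value is given and each value describes these 2 pools.

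Apolipoproteins are the protein part of the lipoprotein particles that carry cholesterol and triglyceride in blood, and the liver is a main source of most of them. Apob forms the scaffold of very low and low density lipoproteins, Apoa1 and Apoa2 are the main proteins of high density lipoprotein, and the small exchangeable proteins Apoc1, Apoc2, Apoc3, Apoa4, Apoa5 and Apoe govern how lipases and receptors handle the particles. Several of the genes lie side by side in clusters. In the RefSeq gene order Apoa1, Apoc3, Apoa4 and Apoa5 follow each other on chromosome 9, and Apoc2, Apoc4, Apoc1 and Apoe on chromosome 7.

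Apoa4 was set apart from its cluster neighbours in these data, though it was read in 1 spot per array without a repeat. Upstream sequences of the cluster genes are therefore given, except for Apoc3, which had no entry. For Apoa4, Apoa1 and Apoa5 the 250 bases upstream of the start are shown, from RefSeq, build GRCm38.p6, plus strand, 5′ to 3′. They lie at chr9:46240594-46240843 (Apoa4), chr9:46228380-46228629 (Apoa1) and chr9:46268358-46268607 (Apoa5). Capitals mark matches to CAAAG, the core of sites bound by the nuclear receptor HNF4 (as CTTTG on the other strand), and to the TATA box TATAAA.
Apoa4: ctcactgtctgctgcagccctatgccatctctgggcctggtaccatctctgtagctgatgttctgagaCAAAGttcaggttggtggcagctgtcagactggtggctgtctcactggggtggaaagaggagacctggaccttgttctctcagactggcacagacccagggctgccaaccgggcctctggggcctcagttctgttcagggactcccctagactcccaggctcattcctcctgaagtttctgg
Apoa1: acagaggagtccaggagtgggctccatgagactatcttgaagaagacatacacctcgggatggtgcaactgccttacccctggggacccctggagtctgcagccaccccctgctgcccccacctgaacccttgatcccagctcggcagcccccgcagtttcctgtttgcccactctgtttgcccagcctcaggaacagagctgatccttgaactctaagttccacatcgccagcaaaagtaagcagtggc
Apoa5: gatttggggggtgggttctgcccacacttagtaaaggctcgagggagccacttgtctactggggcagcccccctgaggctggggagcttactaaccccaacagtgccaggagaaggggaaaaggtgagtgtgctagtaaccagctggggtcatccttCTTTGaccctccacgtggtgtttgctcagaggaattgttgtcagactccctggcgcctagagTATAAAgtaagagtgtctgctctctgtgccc
The window of Apoa4 held 1 CAAAG, 182 bases before the start. Apoa5 had 2 entries, of which the one with the lowest start coordinate was used and the other is not shown. The Apoa5 window used held 1 CAAAG on the other strand, 93 bases before the start, and 1 TATAAA, 31 bases before the start. Neither motif was found in the Apoa1 window. On both strands, 48.6% of the 32851 upstream windows of the same length hold CAAAG and 12.4% hold TATAAA, so both are common. The nuclear receptor half-site AGGTCA (14% of windows), the CCAAT box CCAAT (33.8%) and the half-site of the cyclic AMP response element TGACG (17.8%) were not found in any of the 3 windows. A match describes the letters only.

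The apolipoprotein genes differed little between the pools, with the exception of Apoa4. On values scaled to the 75th percentile of each array, all 9 measured genes had a positive log2 difference (Ad-378 minus Ad-Ctrl), from 0.11 for Apob to 0.78 for Apoa4, with a median of 0.28. The median of all 14288 genes was 0.04. None of the 9 was 2-fold apart, where 2.83% of all genes were higher in Ad-378 by 2-fold or more and 4.51% lower. At 1.5-fold, 1 of 9 was higher, against 8.79% of all genes, a share near the background. At 1.2-fold, 5 of 9 were higher (Apoa4, Apom, Apoa5, Apoa2 and Apoc1), against 28.5% of all genes.

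The common positive sign depended on the scaling. Of all measured genes, 53.9% had a positive difference, and the loess trend of the difference on the signal level added 0.10 at the Apoa4 probe and up to 0.23 at the brightest Apoa2 probe. After that loess fit of the difference on the signal level, 6 of 9 members were positive (47.4% of all genes), the median was 0.06, and the range was -0.09 for Apoc3 to 0.68 for Apoa4. Apoa4 alone then passed 1.2-fold, 1 of 9 against 22.8% of all genes. Before any scaling 6 of 9 were positive too, the scaling itself adding 0.20 to every difference. The signs of Apoa1, Apob and Apoc3 thus turned with the setting, and that of Apoe turned under quantile normalization (-0.02).

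**Figure D1:**
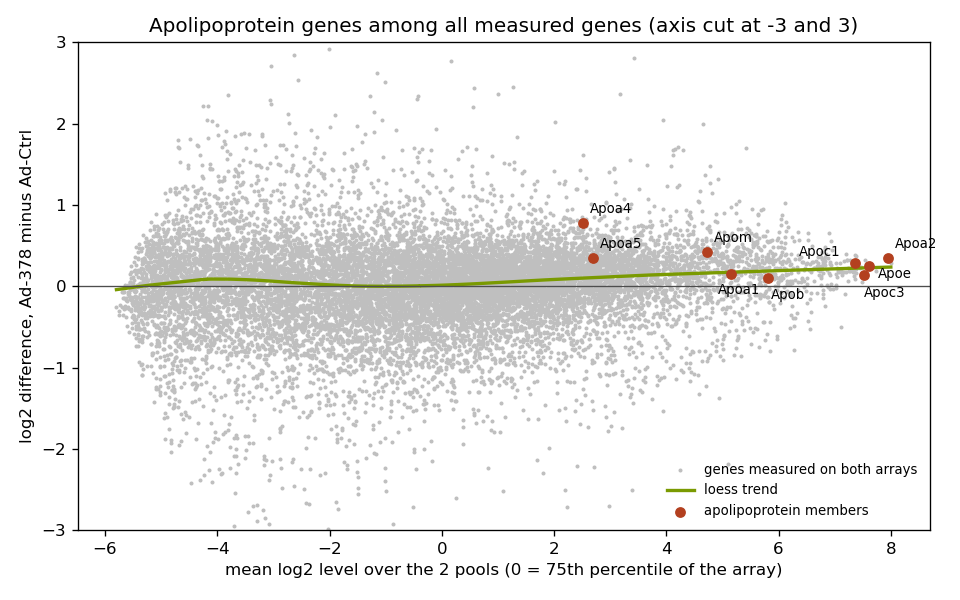
Each grey point is 1 of the 14288 genes measured on both arrays, with its mean log2 level over the 2 pools on the x axis and its log2 difference, Ad-378 minus Ad-Ctrl, on the y axis. The members (red) follow the loess trend (green) except Apoa4 at 0.78 and, by less, Apom at 0.42 and Apoa5 at 0.35.

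Every member probe was well above background in both pools and no member spot was saturated. The second Apob probe was the dim one, with 149.7 in Ad-378 and 141.6 in Ad-Ctrl, both well above background. Signals of different probes depend on the probe, so each was compared only with itself on the other array. Signals are given before scaling, and differences are log2 values after it.

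**Figure D2:**
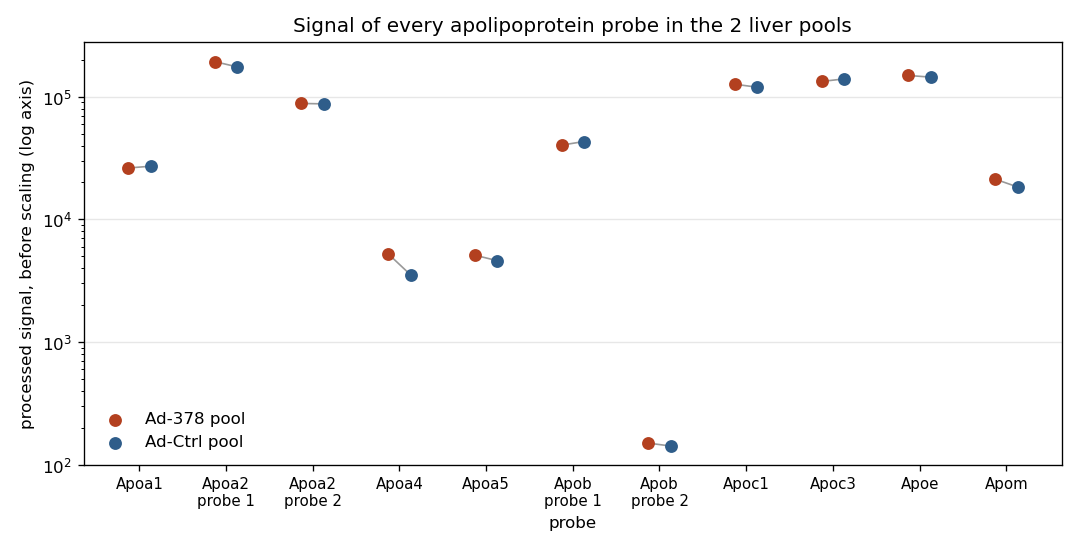
Processed signal before scaling (log axis) of each of the 11 apolipoprotein probes in the Ad-378 pool (red, left) and the Ad-Ctrl pool (blue, right), 1 point per pool. The visible step is at Apoa4, with 5240 in Ad-378 and 3518 in Ad-Ctrl, and heights of different probes are not comparable.

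Among the genes of high density lipoprotein, Apoa1, whose protein activates the cholesterol-esterifying enzyme Lcat and takes up cholesterol from Abca1, was read in 10 spots. Its signal before scaling was 24357 to 27541 with a median of 26532 in Ad-378, and 25159 to 28983 with a median of 26876 in Ad-Ctrl. The spots of both pools overlapped, and 9 of the 10 were lower in Ad-378 when the same position was compared. After scaling the log2 difference was 0.16 (0.10 to 0.21 over spots, SD 0.03), so the direction seen on the raw spots was turned by the scaling, and the loess value of -0.02 lay next to 0.

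Apoa2, the other main protein of high density lipoprotein, had a signal of 193385 in Ad-378 and 175074 in Ad-Ctrl at its brighter probe. A second probe had 88196 in Ad-378 and 87434 in Ad-Ctrl. The log2 differences were 0.35 and 0.22, both positive, and that of the brighter probe was 0.11 under loess. Apom, a lipocalin that carries sphingosine 1-phosphate on high density lipoprotein, had 21294 in Ad-378 and 18379 in Ad-Ctrl, a log2 difference of 0.42 that was 0.25 under loess. After Apoa4 it was the member with the largest difference on the 75th percentile scale.

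Apoe, the ligand by which remnants enter hepatocytes, was also read in 10 spots, 1 of which was marked as an outlier in Ad-Ctrl and left out there. Its signal was 135746 to 172834 with a median of 146238 in Ad-378, and 132354 to 163422 with a median of 140706 in Ad-Ctrl. The ranges overlapped widely, but at 8 of 9 paired positions the spot was brighter in Ad-378. The log2 difference was 0.25 after scaling, and 0.19 to 0.30 over spots (SD 0.04). Under loess it was 0.02.

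Spots printed from 1 probe share the RNA, so their spread shows only how evenly an array reads 1 sample. The scanner error of a log2 difference, computed by the scanner software, was 0.20 for each of the gene values, whatever their signal. An error that does not change with the signal is not a spread measured on these spots. The paired spots of Apoa1 or Apoe spread less than it, and a value beyond it is not thereby shown to be precise.

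**Figure D3:**
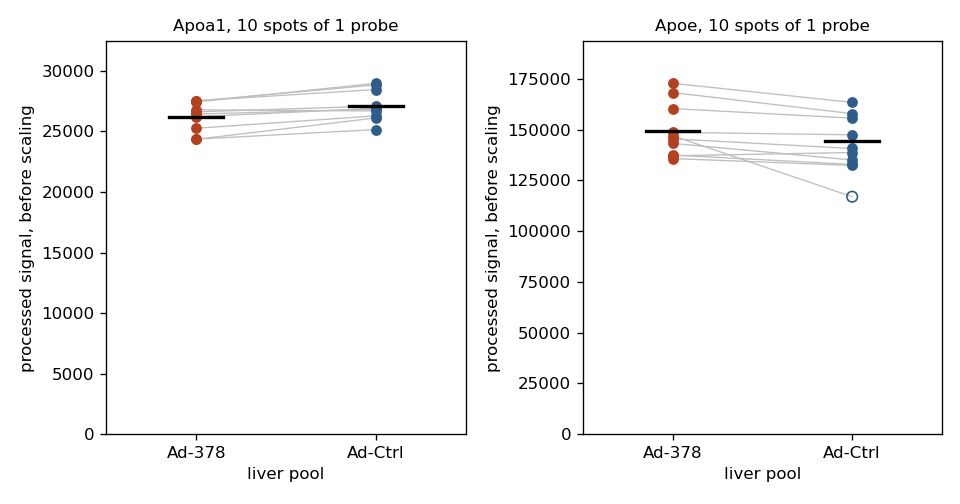
Processed signal before scaling of the 10 spots of the Apoa1 probe (left panel) and the 10 spots of the Apoe probe (right panel), with Ad-378 (red) left of Ad-Ctrl (blue). Grey lines join spots at the same array position, black bars are geometric means, and the open circle is the Apoe spot left out in Ad-Ctrl. Apoa1 lies slightly lower and Apoe slightly higher in Ad-378, and in both genes the spots of the 2 pools overlap.

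Apob, the structural protein of very low density lipoprotein, had a signal of 40302 in Ad-378 and 43137 in Ad-Ctrl at its brighter probe, the scaled log2 difference being 0.11 (-0.08 under loess). At the dimmer probe the difference was 0.28. The first was smaller than its scanner error of 0.20 and the second larger than its error of 0.21. Its mRNA is edited in mouse liver by Apobec1, which creates the shorter form of the protein. Apobec1 was lower in Ad-378, with a signal of 2142 in Ad-378 and 4588 in Ad-Ctrl and a log2 difference of -0.90 (-0.98 under loess). Editing itself was not measured by these probes.

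Of the C apolipoproteins, Apoc1, an inhibitor of lipoprotein uptake and of lipases, had 126472 in Ad-378 and 119537 in Ad-Ctrl. Apoc3, which slows the clearance of triglyceride-rich particles, had 133197 in Ad-378 and 139834 in Ad-Ctrl. The scaled differences were 0.28 for Apoc1 and 0.13 for Apoc3. Under loess they were 0.06 and -0.09, both smaller than the scanner error.

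Apoa5, which promotes triglyceride breakdown by lipoprotein lipase, had 5102 in Ad-378 and 4600 in Ad-Ctrl, and a log2 difference of 0.35 (0.25 under loess). Apoa4, a protein of chylomicrons and high density lipoprotein that is made in intestine and, in mice, also in liver, had 5240 in Ad-378 and 3518 in Ad-Ctrl. Its log2 difference was 0.78, a fold of 1.71, with a scanner error of 0.20, and 0.68 under loess. This difference exceeded that of 95.1% of all genes on the 75th percentile scale and of 94.5% under loess.

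Apoa4 was singled out as the highest member, and it stayed highest in all 9 settings computed. All settings reread the same spot on each array. Several repeat the main values or shift all members alike, and so cannot change the order. The settings are thus not separate support for its rank. On the main scale the difference of Apoa4 exceeded that of each of the 8 other members by 0.36 (Apom) to 0.67 (Apob), where the scanner error of such a contrast is 0.29. Against its neighbours in the cluster the excess was 0.62 for Apoa1, 0.65 for Apoc3 and 0.43 for Apoa5. The gap to the median of the other 8 ran from 0.49 to 0.71 over the settings. Since Apoa4 was read in 1 spot per array, its difference has no repeat on the array.

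**Figure D4:**
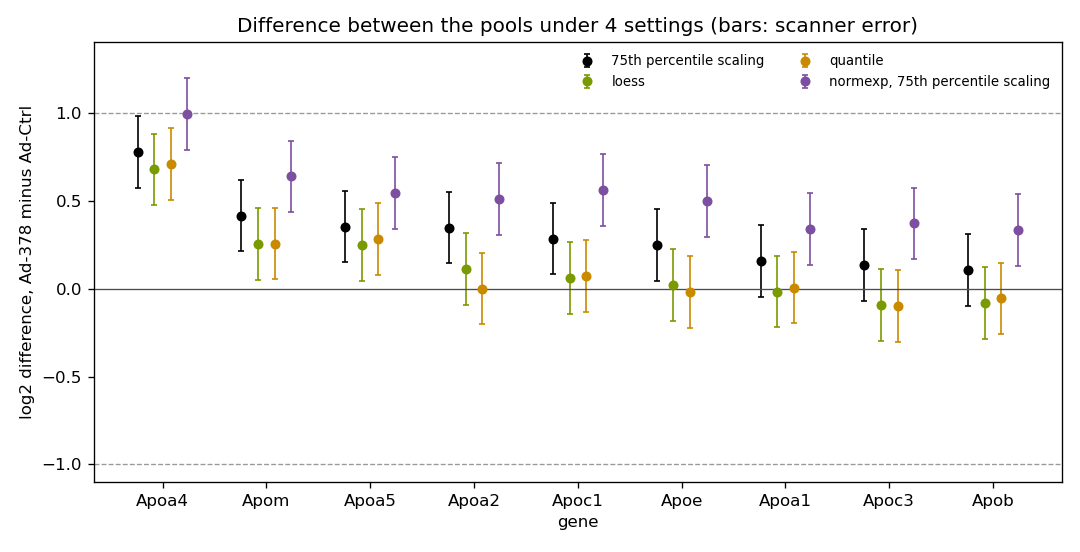
Log2 difference, Ad-378 minus Ad-Ctrl, of the 9 measured members under 4 settings, ordered by the value on the 75th percentile scale. Bars are the scanner error of 1 array pair and dashed lines mark 2-fold. Apoa4 stays at 0.68 or above in the 4 settings shown, while Apoa1, Apoc3, Apob and Apoe lie at either side of 0.

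Apoa4 is abundant in enterocytes, and other cells of liver make Apoe and Apoc1, so markers of these cells were read beside the members. All 15 hepatocyte markers were well above background in both pools, with a summed signal before scaling of 1234733 in Ad-378 and 1294358 in Ad-Ctrl and a median log2 difference of 0.18 (-0.04 under loess). Of 8 enterocyte markers, 4 were measured, with a median difference of 0.20 and a summed signal of 26197 in Ad-378 and 18986 in Ad-Ctrl. That median was -0.14 after normexp and -0.12 with no filter on background, so its direction turned with the setting. Most of the signal was Fabp2, a fatty acid binding protein that hepatocytes also express, with 19892 in Ad-378 and 12511 in Ad-Ctrl and a log2 difference of 0.87, against 0.78 for Apoa4. The peptidase gene Anpep, which hepatocytes express too, had 6215 in Ad-378 and 6381 in Ad-Ctrl, a difference of 0.17. The defining markers Vil1, Lct, Alpi and Cdx2 were not well above background on both arrays. Cdx1 was measured but dim, with 62.2 in Ad-378 and 61.1 in Ad-Ctrl. Its difference was 0.23, and -0.60 after normexp. The sucrase gene Sis had 27.6 in Ad-378 and 33.2 in Ad-Ctrl. The part of such cells in the Apoa4 value was not tested.

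Macrophages make Apoe and Apoc1 too, and their markers were lower in the Ad-378 pool. At the probe used for each gene, all 14 measured markers of Kupffer cells and macrophages were lower in Ad-378, against 6585 of all 14288 genes. Their median difference was -0.85 and their summed signal 58733 in Ad-378 and 124610 in Ad-Ctrl, while Apoe and Apoc1 were at 0.25 and 0.28. The 3 probes of Csf1r ran from -0.88 to 0.36. Timd4 was dim, with 16.5 in Ad-378 and 20.7 in Ad-Ctrl, and its difference of -0.13 lay within its scanner error of 0.37. The part of these cells in the Apoe and Apoc1 values was not tested. In bulk tissue, fewer cells of a type and less RNA per cell cannot be told apart.

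Other genes that carry apolipoprotein names, with Clu and serum amyloid genes, were set beside the members from a list. The list goes by name, so not all of its genes need code for proteins of lipoprotein particles. Of 17 measured, 14 had a positive difference (10 under loess), 4 were at least 1.5-fold higher and 0 were 2-fold apart, with a median of 0.22 (0.11 under loess). Of all genes, 53.9% were positive (47.4% under loess) and 8.79% were at least 1.5-fold higher. At 2-fold, 2.83% of all genes were higher and 4.51% lower. Apon, a neighbour of Apof on chromosome 10, had 28140 in Ad-378 and 17430 in Ad-Ctrl, a log2 difference of 0.89. Apoc4, which lies between Apoc2 and Apoc1, had 20205 in Ad-378 and 13926 in Ad-Ctrl, a difference of 0.74, while its neighbours Apoc1 and Apoe were at 0.28 and 0.25.

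The other genes named from that list differed by less or were dim. Apof, an inhibitor of lipid transfer, was at 0.50, Apoh, which binds phospholipid, at 0.20, the chaperone Clu at 0.08 and Saa4, the constitutive serum amyloid, at -0.04. Apol10b was at 0.81 but dim, with 67.2 in Ad-378 and 44.1 in Ad-Ctrl, and at -0.57 after normexp background correction, so its direction turned with the setting.

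Of 18 measured genes of lipoprotein assembly and secretion, 15 had a positive difference, against 53.9% of all genes, and 13 under loess, against 47.4%. None was 2-fold apart, where 2.83% of all genes were higher and 4.51% lower, the median being 0.30 (0.18 under loess). Mttp, the transfer protein that loads lipid onto Apob, had 19281 in Ad-378 and 15251 in Ad-Ctrl, a log2 difference of 0.54 (0.38 under loess). Sar1b, a GTPase of the vesicles that carry lipoprotein from the endoplasmic reticulum, was at 0.62. Apobec1 (-0.90) differed most in the other direction.

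Genes that remodel particles in blood were spread widely. Of 15 measured, 10 were positive (8 under loess), 1 was higher and 1 lower by 2-fold or more, with a median of 0.19 (0.04 under loess). The shares over all genes were 53.9% positive (47.4% under loess), 2.83% higher and 4.51% lower by 2-fold or more. Lpl, the lipoprotein lipase that Apoc2 activates and Apoc3 restrains, had 2112 in Ad-378 and 7073 in Ad-Ctrl, a log2 difference of -1.54 at its brighter probe and -1.42 at the other. Adult hepatocytes express little Lpl, whereas macrophages and adipocytes express it. Of 6 adipocyte markers 3 were measured, Cfd at -1.06, Fabp4 at -0.93 and Retn at 0.02, with a median of -0.93 and a summed signal of 4209 in Ad-378 and 9214 in Ad-Ctrl, and Adipoq, Plin1 and Lep were not well above background on both arrays. Most of that signal was Fabp4 alone, with 4141 in Ad-378 and 9070 in Ad-Ctrl, and the median is the Fabp4 value. The median was -0.58 on the matrix values and -0.26 with no filter on background, and Cfd was dim, with 52.3 in Ad-378 and 125.7 in Ad-Ctrl. The part of such cells in the Lpl value was not tested.

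Hepatic lipase, Lipc, had 1119 in Ad-378 and 666.2 in Ad-Ctrl, a log2 difference of 0.95. The endothelial lipase gene Lipg lay at 1.00, but was dim, with 49.8 in Ad-378 and 28.6 in Ad-Ctrl, and at 0.55 on the deposited matrix values and -0.64 after normexp, so its direction turned with the setting. It is the 1 gene of the list counted as 2-fold higher. Pltp, the phospholipid transfer protein, was at -0.64, with 2722 in Ad-378 and 4876 in Ad-Ctrl. Lcat was at 0.33, the cholesterol exporter Abca1 at -0.09, and the lipase inhibitors Angptl4 and Angptl8 at 0.38 and -0.32.

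Receptors and uptake genes were balanced, with 8 of 16 positive (6 under loess) and a median of 0.01 (-0.08 under loess). Over all genes 53.9% were positive (47.4% under loess). Lrp1, a remnant receptor for Apoe, had 2049 in Ad-378 and 2379 in Ad-Ctrl, a difference of -0.01 (-0.08 under loess). Scarb1, the high density lipoprotein receptor, was at 0.05 at its brighter probe (-0.08 under loess) and at -0.10 at the other.

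Members of that list beyond 2-fold were 1 in each direction, where 2.83% of all genes were higher and 4.51% lower. Pdzk1, the adaptor that stabilises Scarb1 in liver, had 3350 in Ad-378 and 1614 in Ad-Ctrl, a difference of 1.26 at one probe and 1.13 at the other. Vldlr, a receptor for triglyceride-rich particles, was at -1.44 and -1.38 at its 2 probes, with 165.0 in Ad-378 and 516.2 in Ad-Ctrl at the brighter. Mylip, a ubiquitin ligase that degrades lipoprotein receptors such as Vldlr, was at -0.72 at its brighter probe and -0.49 at the other.

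Among 28 measured regulators of apolipoprotein genes, 18 were positive (16 under loess), 0 were higher and 1 was lower by 2-fold or more, with a median of 0.16 (0.09 under loess). For all genes the shares were 53.9% positive (47.4% under loess), 2.83% higher and 4.51% lower by 2-fold or more. Ppara, the fatty acid receptor, had 15748 in Ad-378 and 9971 in Ad-Ctrl, a difference of 0.86, its 3 probes running from 0.67 to 1.52. Creb3l3, a membrane-bound factor that in mice activates Apoa4, had 58043 in Ad-378 and 46055 in Ad-Ctrl, a difference of 0.54 (0.34 under loess).

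Hnf4a, the nuclear receptor needed for much hepatocyte expression, had 62237 in Ad-378 and 79955 in Ad-Ctrl, a difference of -0.16 that was -0.36 under loess and 0.08 after normexp. Nr1h3, a sterol sensor, was at 0.28 at its brighter probe and 0.60 at the other, and Nr1d1, a circadian repressor of Apoc3, at 0.43. Nr0b2, a corepressor, was at -1.42. Thra was at 0.996, just under 2-fold, at its brighter probe but at 0.28 at the other.

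Proteins secreted by hepatocytes gave the nearest comparison for the members. Of 20 measured, 18 were positive (11 under loess), against 53.9% of all genes (47.4% under loess). The median was 0.22, against 0.28 for the 9 members, and under loess the medians were 0.01 and 0.06. Alb was at 0.19 and Ttr at 0.22. Plg (1.04) and Fetub (0.61) differed most, followed by Vtn (0.36). All 9 measured apolipoprotein genes thus lay in the range of other secreted proteins (-0.04 to 1.04), with Apoa4 above all of these but Plg.

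**Figure D5:**
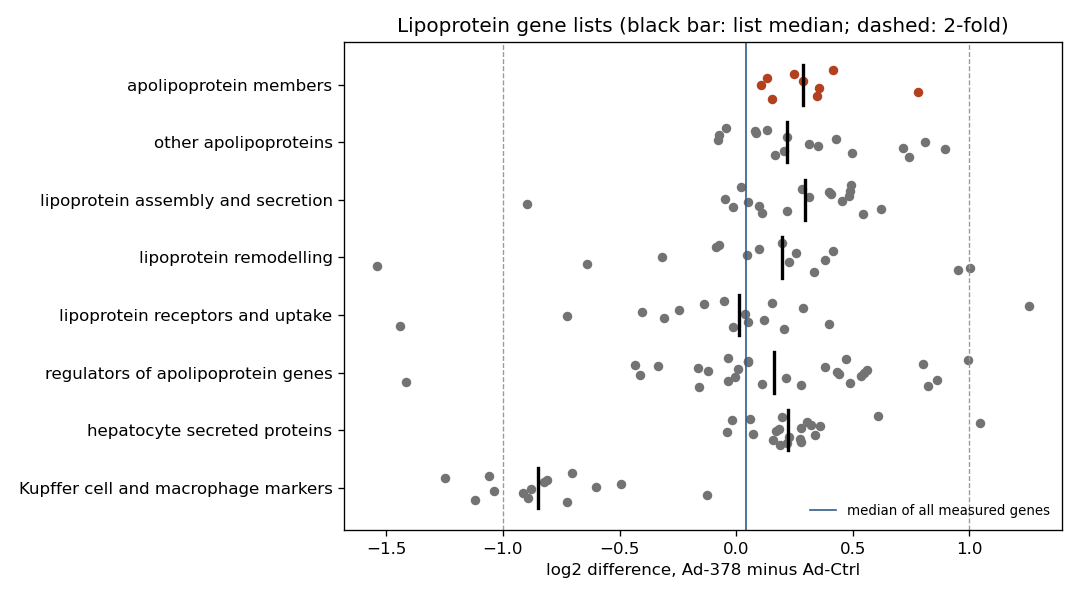
Each point is a gene's log2 difference, Ad-378 minus Ad-Ctrl, on the 75th percentile scale, by list. Black bars are list medians, the blue line is the median of all measured genes (0.04) and dashed lines mark 2-fold. The apolipoprotein members (red) lie between 0.11 and 0.78, and the macrophage markers are all below 0.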

How the data were processed

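Liver RNA of 2 pools was measured on single-colour Agilent arrays with 43020 gene spots and 1377 controls. Per the file headers, the deposited processed signal is an intensity on a linear scale, background-subtracted and detrended within each array by Feature Extraction 11.0.1.1 (the submitters' processing notes name 9.1), the arrays not being scaled to each other. Other deposited values are flags of 0 or 1 that mark spots as saturated, outlying or well above background. The deposited matrix intensities equalled the raw median signal in 100% of spots. Per the labels, RNA was made with a blood RNA kit with globin removal, although the tissue is liver.

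Control spots and 123 gene spots marked as outliers per array were left out. Spots of a probe were averaged as log2 signal, and the 75th percentile over probes (695 in Ad-378, 800 in Ad-Ctrl) was subtracted. Probes were named where their identifier matched 1 gene of a RefSeq table of GRCm38.p6, without versions: 27219 probes matched and 12182 did not. The headers name build mm9, so coordinates are given only for RefSeq promoters, of which 8 of 10 members had an entry. For each gene the brightest probe that passed the background flag in both pools was used (28262 gene spots, 65.7%, in Ad-378 and 27161, 63.1%, in Ad-Ctrl, none saturated). The error is the one the scanner software gives, over both spots, not one estimated between repeats, and precision is limited by the number of arrays. The 2 arrays come from 1 scan.

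No test was run between the groups. The members and the lists (other apolipoproteins, assembly, remodelling, receptors, regulators, secreted proteins, and markers of hepatocytes, macrophages, enterocytes and adipocytes) were chosen with earlier results of these data known. Named genes are the members, 26 genes fixed by name and the 3 of each list with the largest differences; others are named as neighbours or as markers. Some genes of the rule are not reported here singly and stay in the counts and medians. Alternatives were quantile and loess normalization (span 0.3), the 75th percentile over detected probes, the mean over probes, the matrix values, normexp (offset 50), no filter on background and thresholds of 1.2-, 1.5- and 3-fold. The steps were tested on simulated data with known differences. Python 3.11.15, numpy 2.4.6, pandas 2.3.3, statsmodels 0.14.6, R 4.3.3 and limma 3.58.1 were used.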

Additional observations from a re-analysis of the deposited data

How the results depend on the processing

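The median difference of the 9 measured members was 0.0062 under quantile normalization, 0.0624 under loess and 0.5098 after normexp, against 0.28 on the main scale. These scales move the median of all genes too, to -0.0049, -0.03 and -0.15, from which the members' medians lie 0.01, 0.09 and 0.66 away. With no scaling between arrays, an alternative chosen after seeing the data, the members' median was 0.08 and that of all genes -0.16. The cause was not tested. Of 72 member values under 8 alternatives, 58 lay within the scanner error of the main value and 14 beyond it. Much of this was fixed in advance, so the count does not measure robustness. With no filter on background the member values repeat those of the main setting. The mean over probes can change only members with more than 1 probe. Without scaling every member moved by 0.2033, just under the error of 0.2040. The 75th percentile over detected probes moved all members alike too. The count of members at least 2-fold higher was 0 and became 5 at 1.2-fold, where 28.5% of all genes pass, and 1 at 1.5-fold, as the lower threshold implies. Under loess 1 of 9 passed 1.2-fold, where 22.8% of all genes do. After normexp Apoa4 lay at 0.99, just inside 2-fold. No paired analysis was possible because the 2 groups share a single replicate number, 1, and with 1 sample each no replicate could be left out.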
